A study of Drosophila melanogaster with 16 samples.

Results

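Transcript levels of single Drosophila embryos without zygotic Asx were compared, gene by gene, with those of stage-matched wild-type embryos. The comparison used 8 of the 16 samples of the series, 5 Asx0 and 3 wild-type embryos, all at stage 16, and took every gene whose mean normalized count reached 10. These were 10212 of the 13754 genes in the table. The Asx0 embryos were homozygous for a null allele of Asx on a second chromosome that also carries y+ and the FRT elements F40 and F42D. They were picked as the GFP-negative progeny of parents that balanced this chromosome over CyO with twi-Gal4 and UAS-GFP, in a white mutant background. Their mothers were heterozygous, so that maternal Asx product was present in the egg. The wild type was Oregon-R. No embryos of the mutant stock with a functional Asx gene were measured, so for every gene below a difference between stocks cannot be told apart from the mutation. Poly(A) RNA of each embryo made a library of its own, and the study chose these embryos from a larger set for matching profiles and morphology.

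Asx is the partner that the ubiquitin hydrolase Calypso needs to work on nucleosomes. Together they form PR-DUB, the complex that removes the ubiquitin which Polycomb repressive complex 1 (PRC1) and related ligases attach to histone H2A. Without PR-DUB this mark, H2Aub1, rises over the genome, and HOX genes lose their Polycomb repression in some cells of the embryo. At stage 16 most larval tissues have formed: the epidermis lays down cuticle, muscles and nerves mature, and the gut and fat body take up their metabolic functions. Whole embryos were measured, so that fewer cells of a type and less RNA per cell cannot be told apart.

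All levels below are normalized counts on the log2 scale as deposited, on which a difference of 1 is 2-fold, and each embryo gives 1 value per gene. At low counts these values varied less than counts can. For genes with mean counts from 10 to 50 the median SD among Asx0 embryos was 0.048, whereas counting error alone would give about 0.288 at the median count of 25.1. Above a mean of 1000 the observed spread exceeded counting error. Differences of low genes may therefore be understated. The depth of each library is unknown, since embryo totals were not used here. The first principal component (47.5% of the variance) placed all 5 Asx0 embryos between 5.50 and 9.51 and the 3 wild-type embryos between -16.25 and -9.44. The level of msl-2, which males translate for dosage compensation, minus that of Sxl, the switch gene of female development, lay at -3.69 in Asx0 replicate 1, between -2.53 and -2.37 in the other Asx0 embryos, at -3.94 and -3.90 in wild-type replicates 1 and 3 and at -2.39 in wild-type replicate 2. This sex score was low in 1 of 5 Asx0 and 2 of 3 wild-type embryos, and named calls that were lost with it as a covariate are given below. Of 38 markers that define cell types, 36 were tested, 1 was higher in Asx0 embryos (sage, of the salivary gland) and 4 were lower (Jon65Aiii and lambdaTry of the midgut, Adh and Mtp of the fat body). The other markers of these tissues did not pass the limit for a call given below, which 11.3% of all tested genes passed.

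Loss of zygotic Asx went with many small differences and few large ones. With limma and an adjusted p under 0.05 as the limit for a call, Asx0 embryos had 530 genes at a higher level (5.19% of those tested) and 628 at a lower one (6.15%), in all 1158 genes or 11.3%. Of these called genes, 13 (0.127%) were higher and 32 (0.313%) lower by more than 2-fold. An unadjusted p under 0.05 was found for 26.7% of tested genes. The called genes divided by size into 568 (49.1%) that differed by at most 1.25-fold, 406 (35.1%) between 1.25-fold and 1.5-fold, 139 (12%) up to 2-fold and 45 (3.89%) above. Genes called higher outnumbered those called lower only in the smallest class, by 298 to 270, while in the class above 2-fold those lower outnumbered those higher by 32 to 13. The median difference of the genes called higher was 0.30 and that of the genes called lower was -0.35. The quartiles over all tested genes were -0.08 and 0.08, about the same as the median SD within groups of 0.08 in Asx0 and 0.08 in wild-type embryos. At 2054 genes (20.1%) no Asx0 embryo overlapped a wild-type embryo. The share of called genes was 9.17% among genes with mean counts from 10 to 50 and 12.6% among genes above 5000. With the sex score as a covariate, 314 genes were called higher and 435 lower.

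**Figure D1:**
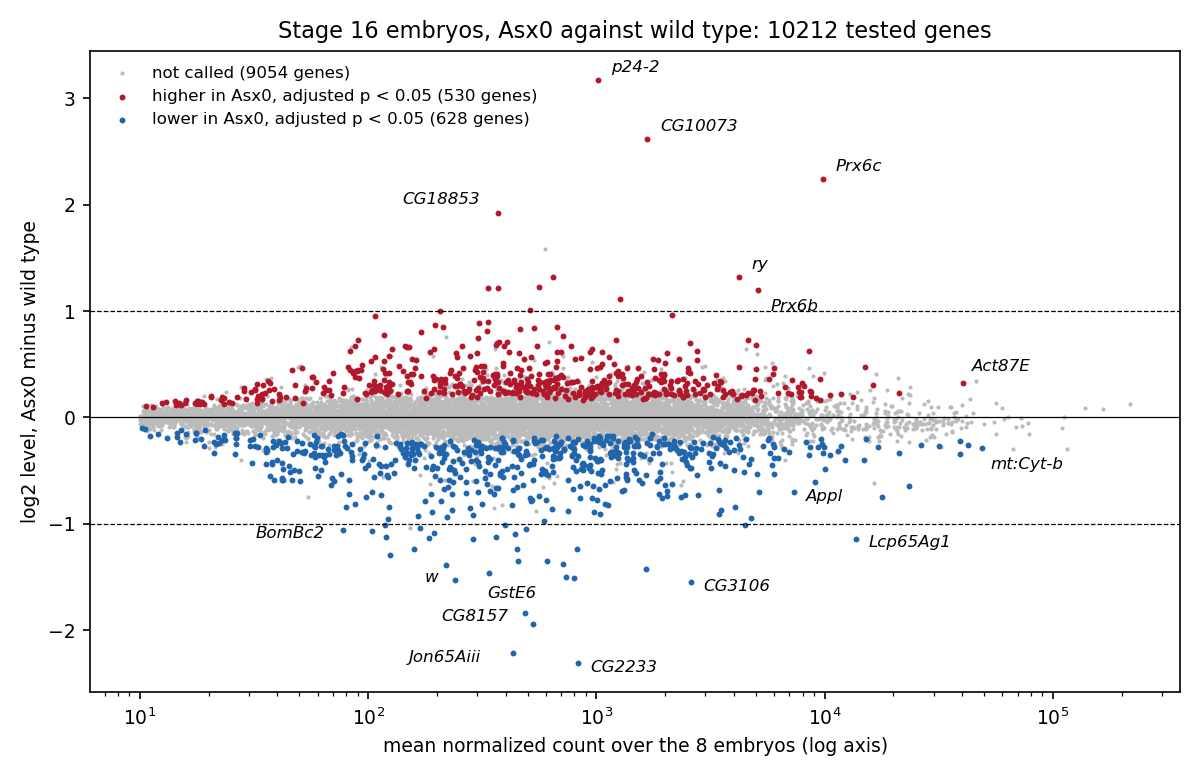
Difference in log2 level, Asx0 minus wild type, against the mean normalized count (log axis) of 10212 genes. Each point is a gene, in red where called higher in Asx0 (530), in blue where called lower (628), in grey where not called. Dashed lines mark 2-fold. Most called genes lie inside these lines at every level, and the genes beyond them are few and mostly lower in Asx0.

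Asx RNA did not tell the genotypes apart. It was at 10.16, 10.22, 10.31, 10.37 and 10.26 in the 5 Asx0 embryos, against 10.25, 10.27 and 10.35 in wild type (difference -0.03, standard error 0.06, adjusted p = 0.793 from limma). The groups overlapped fully, so the RNA level does not check the allele. caly, which encodes Calypso, had a difference of -0.13 (standard error 0.07, adjusted p = 0.256 from limma). Other marker genes did separate the groups: w, of the stock, and ry, which the genotype of the stock does not name. white (w), an ABC transporter gene of eye pigment precursors that is mutant in the parental stock, was at 6.82, 6.87, 6.90, 6.69 and 6.69 in Asx0 embryos, against 8.21, 8.16 and 8.18 in wild type (difference -1.39, standard error 0.06, adjusted p = 9.7e-07 from limma). rosy (ry), which encodes xanthine dehydrogenase and is a marker of many inserted elements, was at 12.31, 12.26, 12.22, 12.46 and 12.43 in Asx0 embryos, against 11.11, 10.96 and 10.98 in wild type (difference 1.32, standard error 0.07, adjusted p = 1.27e-06 from limma). yellow (y), the body colour gene of which the mutant chromosome carries a copy, overlapped between the groups, at 10.06 to 10.47 in Asx0 embryos and 9.86 to 10.54 in wild type.

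CG10073, which the annotation gives no name, was the most clearly separated gene. It lies on chromosome arm 2R from 19380543 to 19384965 (dm6) and was at 10.91, 10.80, 11.01, 11.11 and 11.10 in Asx0 embryos, against 8.34, 8.43 and 8.34 in wild type, a difference of 2.61 (standard error 0.08, adjusted p = 1.77e-08 from limma). Absence of overlap between the groups was a condition for taking CG10073, CG18853, Acsf2, Ugt49B1 and CG5493 as largest rises, so it is not a result. CG18853 differed by 1.93 (standard error 0.11, adjusted p = 2.9e-06 from limma). The acyl-CoA synthetase gene Acsf2 differed by 1.22 with an SD of 0.06 among Asx0 and 0.09 among wild-type embryos (adjusted p = 1.27e-06 from limma). Ugt49B1, a UDP-glycosyltransferase gene, was at 9.55 ± 0.10 (SD, n = 5) in Asx0 embryos and 8.23 ± 0.14 (SD, n = 3) in wild type. Its neighbour Ugt49C1 was higher as well, by 0.56 (adjusted p = 0.000402 from limma). CG5493 differed by 1.22 (adjusted p = 0.00418 from limma) with more spread, 8.02 to 8.90 in Asx0 embryos against 6.86 to 7.75 in wild type.

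A pair of peroxiredoxin genes and the gene between them were higher together. Peroxiredoxins reduce hydrogen peroxide and lipid peroxides. Prx6c, CG11825 and Prx6b lie within 2R from 10418718 to 10425471 (dm6). Prx6c was at 13.12, 13.19, 13.97, 13.13 and 14.13 in Asx0 embryos, against 11.44, 10.63 and 11.74 in wild type (difference 2.24, standard error 0.29, adjusted p = 0.000622 from limma). CG11825 was at 9.28, 9.36, 9.56, 8.63 and 9.52 in Asx0 embryos, against 7.85, 7.66 and 8.63 in wild type. Prx6c, CG11825 and Prx6b were taken as largest rises on the condition that the groups did not overlap. Asx0 replicate 4 and wild-type replicate 3 nearly met at CG11825 (difference 1.22, adjusted p = 0.00687 from limma). Prx6b was at 12.18, 12.22, 12.90, 12.11 and 13.10 in Asx0 embryos, against 10.93, 11.10 and 11.89 in wild type (difference 1.20, adjusted p = 0.0141 from limma). That call was lost without wild-type replicate 1 (adjusted p = 0.0587), without wild-type replicate 2 (0.0626), with the sex score (0.0576) and with robust variances (0.0784). Asx0 replicates 3 and 5 were the highest embryos for both peroxiredoxin genes. The paralogs are similar in sequence, and the division of reads between them is uncertain.

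Some of the largest rises were not shared by all Asx0 embryos. p24-2, a member of the p24 family of cargo receptors in the early secretory pathway, was at 6.58, 10.11, 10.98, 9.71 and 9.80 in Asx0 embryos, against 6.38, 6.26 and 6.15 in wild type. Asx0 replicate 1 was at the wild-type level and the other 4 were far above it. The difference was 3.17 (standard error 0.74, adjusted p = 0.019 from limma). The call of p24-2 was lost without wild-type replicate 2 (adjusted p = 0.0622), without wild-type replicate 3 (0.0527), with the sex score (0.0879) and with robust variances (0.0992). Unc-115b overlaps p24-2 on 3R (9687060 to 9692775 in dm6) and showed the same division, with 6.76 in Asx0 replicate 1 and 9.12 to 10.17 in the other 4, against 7.17 to 7.55 in wild type (adjusted p = 0.103 from limma, 0.000475 without Asx0 replicate 1). Reads of the shared stretch can fall to either gene. For yem, which encodes yemanuclein, a partner of the histone H3.3 chaperone HIRA, it was Asx0 replicate 5 that differed from its group, at 8.17, with 9.15 to 9.43 in the other 4 Asx0 embryos and 8.05 to 8.10 in wild type. Its difference was 1.01 (adjusted p = 0.0186 from limma), and the adjusted p was 0.0548 without wild-type replicate 1, 0.0602 without wild-type replicate 2 and 0.0859 with robust variances.

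**Figure D2:**
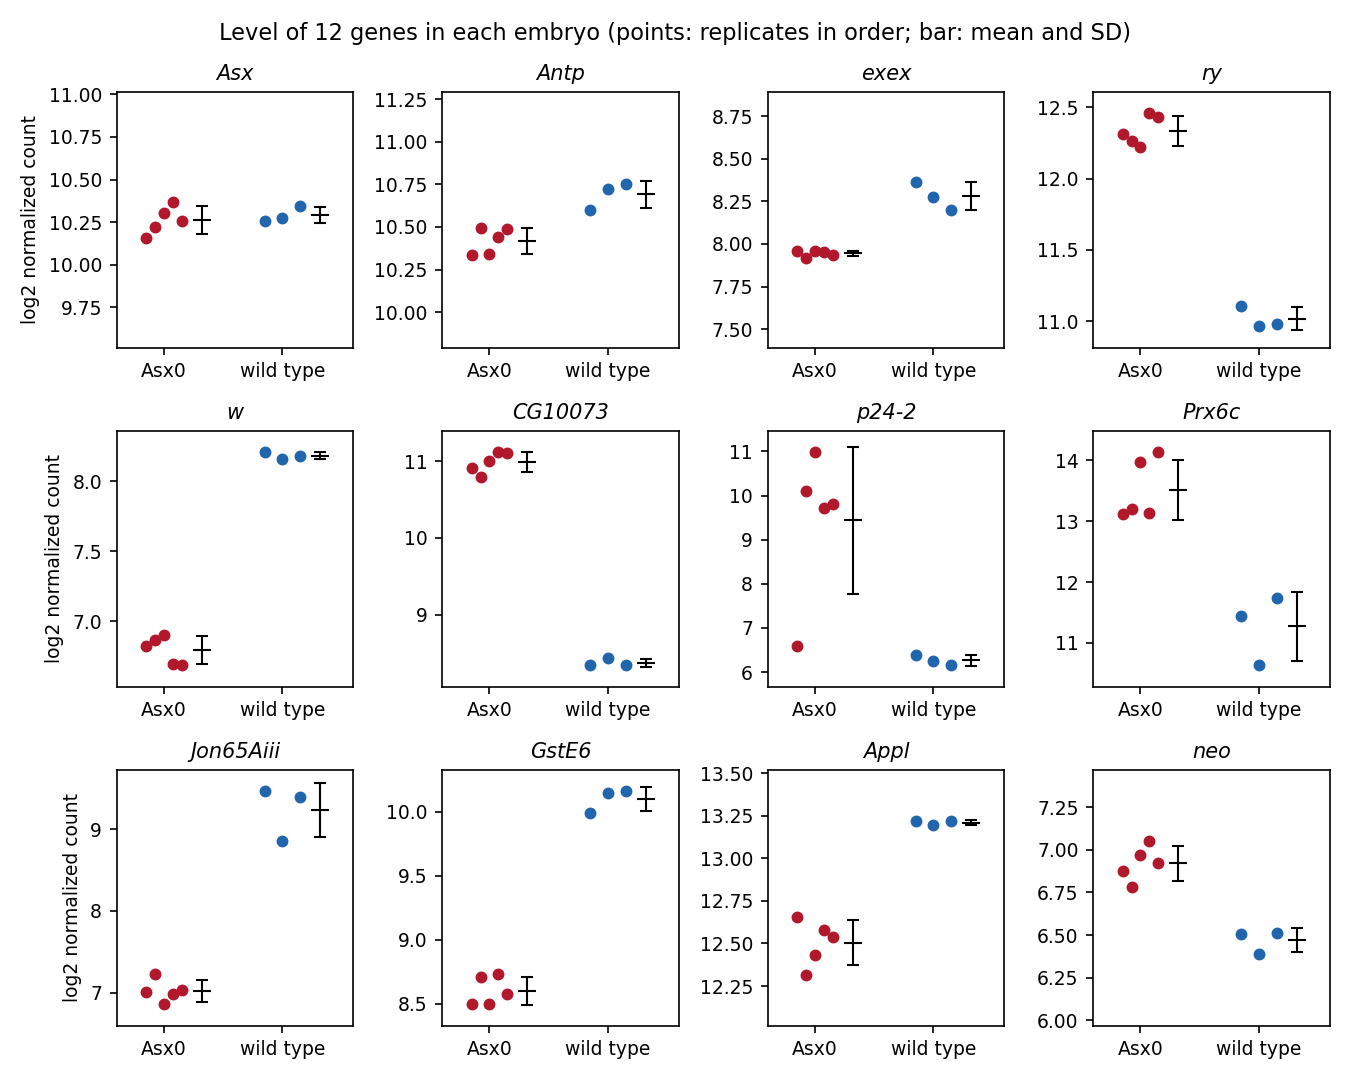
Log2 normalized count of 12 genes in each of the 5 Asx0 (red) and 3 wild-type (blue) embryos, with the mean and SD beside them. Axes span at least 1.5 and differ between panels. Asx overlaps between the groups, and for p24-2 Asx0 replicate 1 lies at the wild-type level. The values of CG10073, ry, w and GstE6 form 2 separate clusters. These genes are among the largest changes, which were taken only where the groups did not overlap.

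The genes that fell most included a midgut protease, a glutathione transferase and several without a named function. CG2233 was at 8.57, 8.74, 7.45, 7.60 and 7.42 in Asx0 embryos, against 10.03, 10.64 and 10.13 in wild type (difference -2.31, standard error 0.31, adjusted p = 0.0008 from limma). The mutants fell into a higher pair and 3 lower embryos, all below wild type. CG8157 had a difference of -1.84, CG3106 of -1.55, CG7054 of -1.53, CG17325 of -1.51 and CG31446 of -1.47. Their adjusted p lay between 1.34e-05 and 0.00105 from limma. Absence of overlap between the groups was a condition for naming CG2233 and these 5 genes, so it is not a result. BckdhB, which encodes a subunit of the dehydrogenase that breaks down branched-chain amino acids, was at 8.63 ± 0.32 (SD, n = 5) in Asx0 embryos and 10.02 ± 0.06 (SD, n = 3) in wild type (difference -1.38, adjusted p = 0.000194 from limma).

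Some of the genes with the smallest p-values below 2-fold hardly varied between embryos of a group. Prp39, a component of the U1 small nuclear ribonucleoprotein that recognizes splice sites, was at 11.32, 11.32, 11.33, 11.32 and 11.35 in Asx0 embryos, against 10.72, 10.80 and 10.83 in wild type (difference 0.55, standard error 0.05, adjusted p = 3.63e-05 from limma). CG12560 was at 8.53 to 8.60 in Asx0 embryos and 7.60 to 7.76 in wild type. The difference was 0.61 for Ciao1, which helps to load iron-sulfur clusters onto cytosolic proteins. CG32572 (0.95), yellow-d (0.89), l(3)87Df (0.81), Cyp4p2 (0.78), tinc (0.73) and CG15117 (0.61) were also among the most significant rises of this size. Of these, l(3)87Df (3R from 13030913 to 13031598 in dm6) lies close to ry (13032528 to 13038020). Among the falls, the serpin gene Spn42De was at 4.80 to 4.82 in Asx0 embryos and 5.33 to 5.39 in wild type, at a mean count of only 37, where the deposited values vary less than counts would. resilin, the gene of the elastic protein of insect cuticle, differed by -0.81 (standard error 0.06, adjusted p = 1.82e-05 from limma). CG5793 was at 9.97 to 10.03 in Asx0 embryos and 10.57 to 10.59 in wild type. fiz (-0.97), GstE7 (-0.96), CG4839 (-0.81), CG7920 (-0.70), GstE1 (-0.65), CG31809 (-0.60) and CG4563 (-0.59) were also among these falls. All of the genes named here remained called when any 1 embryo was left out. They were picked for the smallest adjusted p in these same embryos, so this and their small spread follow largely from that choice.

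The most abundant genes called included an actin gene among the higher ones and a mitochondrial gene among the lower ones. The actin gene Act87E was at 15.42, 15.34, 15.43, 15.42 and 15.44 in Asx0 embryos, against 15.08, 15.07 and 15.12 in wild type (difference 0.32, standard error 0.05, adjusted p = 0.00212 from limma). mt:Cyt-b, the mitochondrial gene of cytochrome b, was at 15.44, 15.49, 15.44, 15.51 and 15.40 in Asx0 embryos, against 15.77, 15.71 and 15.76 in wild type (difference -0.29, standard error 0.05, adjusted p = 0.00468 from limma). Both sets of values were separate. TwdlW, a Tweedle cuticle protein gene, differed by -0.65 (adjusted p = 0.00031 from limma). l(2)gl, a tumour suppressor gene of epithelial polarity, was higher by 0.48 (adjusted p = 0.0146 from limma), with 13.95 to 14.10 in Asx0 embryos and 13.24 to 13.82 in wild type. The adjusted p of l(2)gl was 0.0674 from limma with the sex score. Less firm were SP1173 (0.22, adjusted p = 0.0619 without wild-type replicate 1) and Vha16-1, a subunit of the vacuolar proton pump (-0.26, adjusted p = 0.0619 without wild-type replicate 1). Their adjusted p was 0.0778 and 0.0759 from limma with the sex score.

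No HOX gene and no gene of the list of developmental regulators known as Polycomb targets was called higher in whole embryos. Of the 8 HOX genes, which set segment identity and are the classical targets, none was called higher by limma and 2 were called lower. These were 0% and 25%, beside 5.19% and 6.15% of all tested genes. At an unadjusted p under 0.05 from limma 2 were higher and 3 lower, where 26.7% of all tested genes passed in either direction. The median of the 8 was -0.11. Antp, active in the thorax, was at 10.33, 10.49, 10.34, 10.44 and 10.49 in Asx0 embryos, against 10.60, 10.72 and 10.75 in wild type. Its groups were separate by a small gap (difference -0.27, standard error 0.06, adjusted p = 0.0142 from limma, and above 0.05 without wild-type replicate 2, at 0.0557, or replicate 3, at 0.0542). abd-A, of the abdomen, was at 10.82, 11.00, 10.91, 10.98 and 10.91 in Asx0 embryos, against 11.04, 11.16 and 11.32 in wild type (difference -0.25, adjusted p = 0.0387 from limma). The adjusted p of abd-A was 0.091 without wild-type replicate 2 and was also above 0.05 without wild-type replicate 3 and without any 1 of Asx0 replicates 1, 3 and 5. It was 0.0702 with the sex score and 0.0598 with each embryo centred on its median. Ubx was at 10.55, 10.62, 10.38, 10.65 and 10.50 in Asx0 embryos, against 10.15, 10.39 and 10.49 in wild type, and overlapped (difference 0.19, adjusted p = 0.176 from limma). The posterior gene Abd-B was at 10.09 to 10.28 in Asx0 embryos and 10.14 to 10.48 in wild type (difference -0.13, adjusted p = 0.331 from limma). The head and anterior genes lab, pb, Dfd and Scr had differences of -0.09, 0.27, 0.14 and -0.25, with adjusted p from 0.105 to 0.758 from limma. Scr was called lower without wild-type replicate 1 (limma, adjusted p = 0.00415). At Dfd it was the wild type that varied most, with 6.97 in replicate 1 and 7.92 and 7.86 in the others, around 7.64 to 7.77 in Asx0 embryos.

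A list of 98 tested developmental regulators known as Polycomb targets gave no higher gene by limma and 6 lower ones (6.12%, beside 6.15% of all tested genes), against 4 higher and 21 lower at an unadjusted p under 0.05. Its median was -0.04, with 66 of the 98 below 0, where the median of all tested genes was -0.00. The 6 were the transcription factor genes exex, tup, grn, caup and D and the Wnt ligand gene wg. exex, which specifies motor neurons, was at 7.96, 7.92, 7.96, 7.95 and 7.94 in Asx0 embryos, against 8.36, 8.28 and 8.20 in wild type (difference -0.34, standard error 0.05, adjusted p = 0.00242 from limma). tup, the fly Islet gene, was at 9.33, 9.42, 9.33, 9.37 and 9.40 in Asx0 embryos, against 9.64, 9.71 and 9.66 in wild type (difference -0.30, adjusted p = 0.00261 from limma). In both, all 5 mutants lay below the wild type by more than their own spread. The GATA factor gene grn differed by -0.28 (adjusted p = 0.0111 from limma, 0.058 with the sex score). The other 3 were weaker: wg (-0.29) had an adjusted p = 0.104 and caup (-0.23) and D (-0.21) of 0.0624 and 0.0651 without wild-type replicate 1, and wg and D also lost the call without wild-type replicate 3 or without either of Asx0 replicates 1 and 5. With the sex score wg (adjusted p = 0.0906) and D (0.085) were not called by limma.

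The genes of the Polycomb and trithorax machinery itself were near their wild-type level. Of 24 genes of PR-DUB, PRC1, PRC2 and PhoRC, 1 was higher (4.17%, beside 5.19% of all tested genes) and none lower by limma (4 and 1 at an unadjusted p under 0.05). Their median was -0.00, with extremes of -0.25 and 0.27. The lower extreme was the PRC1 subunit gene ph-p (adjusted p = 0.072 from limma, 0.036 without Asx0 replicate 1 and 0.027 without wild-type replicate 2). The one that rose was Psc, a RING finger subunit of PRC1, at 9.38, 9.44, 9.36, 9.43 and 9.37 in Asx0 embryos, against 9.18, 8.98 and 9.22 in wild type (adjusted p = 0.0171 from limma and 0.0602 without wild-type replicate 2). Of 20 trithorax group genes, which maintain the active state of Polycomb targets, none was called by limma, beside 11.3% of all tested genes. At an unadjusted p under 0.05 from limma there were 6, and the median was 0.03.

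Digestive enzymes of the midgut were the list with the lowest median. Of 21 tested genes 1 was higher and 8 lower (38.1%, beside 6.15% of all tested genes), the median was -0.20, and 28 further members were below the count limit. Jon65Aiii, a serine protease of the Jonah family, was at 7.01, 7.22, 6.85, 6.98 and 7.04 in Asx0 embryos, against 9.47, 8.86 and 9.39 in wild type (difference -2.22, standard error 0.13, adjusted p = 2.87e-06 from limma). Its neighbours on 3L, Jon65Aiv (-1.07) and yip7 (-1.12), were lower too, with the wild-type embryos far apart: Jon65Aiv was at 5.61 to 5.88 in Asx0 embryos, against 7.28, 6.93 and 6.13 in wild type. yip7 lost its call with robust variances (adjusted p = 0.0689 from limma). The trypsin gene lambdaTry was at 8.58, 8.58, 8.80, 8.50 and 8.62 in Asx0 embryos, against 9.57, 9.33 and 9.29 in wild type (difference -0.78, adjusted p = 0.000171 from limma). The maltase genes Mal-A3 (-0.73), Mal-A4 (-0.31) and Mal-A5 (-0.32) and the amylase gene Amy-p (-0.31) were also lower. The call of Amy-p was lost with the sex score (adjusted p = 0.0542 from limma). The call of Mal-A4 was lost when any 1 embryo other than wild-type replicate 3 was left out, and that of Mal-A5 without any 1 of Asx0 replicates 1 and 3 and wild-type replicates 2 and 3 (limma, adjusted p = 0.133 and 0.0987 without wild-type replicate 2). Against the direction of this list, tobi, an alpha-glucosidase gene known as a target of insulin signalling, was at 7.53, 7.38, 7.46, 7.51 and 7.70 in Asx0 embryos, against 6.67, 6.67 and 6.80 in wild type (difference 0.80, adjusted p = 8.12e-05 from limma). The list median of each embryo was -0.27 to -0.11 in Asx0 and -0.10 to 0.12 in wild type, relative to the wild-type mean.

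**Figure D3:**
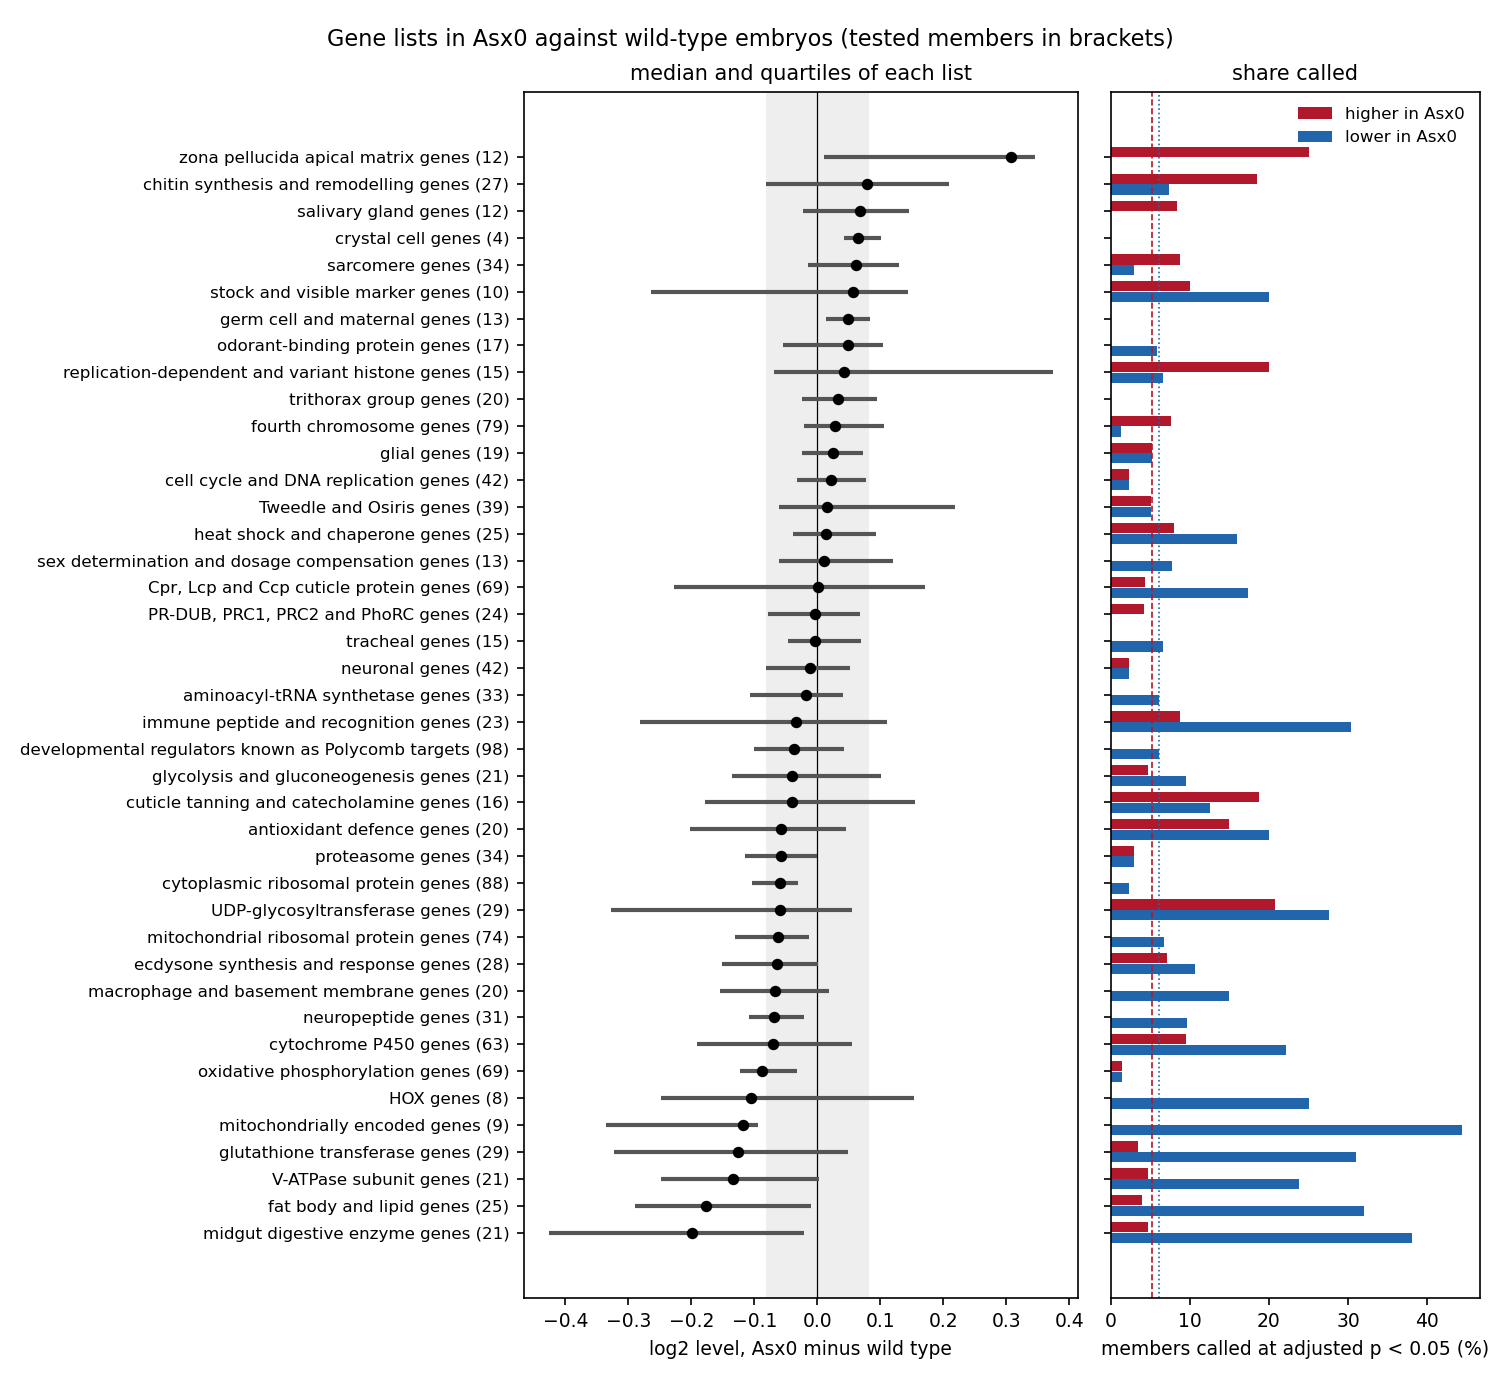
Left, median (point) and quartiles (line) of the difference in log2 level, Asx0 minus wild type, for each gene list, with the tested members in brackets and the quartiles of all tested genes in grey. Right, the share of members called higher (red) or lower (blue), with dashed and dotted lines at the shares of all tested genes, 5.19% and 6.15%. Zona pellucida genes have the highest median (0.31) and midgut digestive enzymes the lowest (-0.20), while lists of developmental regulators and of Polycomb and trithorax genes lie near 0.

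Detoxification genes were called more often than the 5.19% higher and 6.15% lower of all tested genes, except that few glutathione transferase genes were higher. Of 63 cytochrome P450 genes, whose enzymes oxidize lipids, hormones and foreign compounds, 6 were higher (9.52%) and 14 lower (22.2%). Of 29 glutathione transferase genes 1 was higher (3.45%) and 9 lower (31%), and of 29 UDP-glycosyltransferase genes, which add sugars to small molecules, 6 were higher (20.7%) and 8 lower (27.6%). The medians were -0.07, -0.13 and -0.06. GstE6 was at 8.49, 8.71, 8.50, 8.73 and 8.57 in Asx0 embryos, against 9.99, 10.15 and 10.16 in wild type (difference -1.50, standard error 0.07, adjusted p = 1.24e-06 from limma). In the same cluster on 2R, GstE7 and GstE1 were lower and GstE2 was higher, at 8.73 to 8.95 in Asx0 embryos and 8.48 to 8.54 in wild type (difference 0.36, adjusted p = 0.00337 from limma). Outside this cluster GstO3 (-1.09), GstT4 (-0.85) and GstD10 (-0.76) were lower. The neighbouring P450 genes Cyp6a20 (0.67, higher) and Cyp6a23 (-0.52, lower) on 2R likewise went in opposite directions. Elsewhere Cyp6a13 (0.68) was higher on 2R and Cyp6a16 (-0.83) lower on 2L. Calls were also made for Cyp4e2 (-0.79), Cyp4d1 (-0.56), Cyp4p2 (0.78) and Cyp4ad1 (0.61). Ugt35A1 was tight in wild type, at 9.23 to 9.27, and varied from 7.48 to 8.65 in Asx0 embryos (difference -1.23, adjusted p = 0.00496 from limma). Ugt36A1 (-0.79), Ugt36E1 (-0.71), Ugt36D1 (-0.67) and Ugt35C1 (-0.56) were lower, and Ugt37A2 (0.44) was higher.

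Epidermal genes divided by class. The extracellular matrix at the apical face, built from zona pellucida proteins that hold the epidermis to the cuticle, had the highest list median. It was 0.31 over 12 genes. Of these, 3 were higher (25%, beside 5.19% of all tested genes) and none lower by limma (7 and 0 at an unadjusted p under 0.05). neo was at 6.88, 6.78, 6.97, 7.05 and 6.92 in Asx0 embryos, against 6.51, 6.39 and 6.51 in wild type (difference 0.45, standard error 0.07, adjusted p = 0.0014 from limma). dpy, which encodes the giant matrix protein Dumpy, was at 13.99, 13.92, 14.15, 14.16 and 14.21 in Asx0 embryos, against 13.90, 13.65 and 13.79 in wild type. Its groups almost touched (difference 0.31, adjusted p = 0.0298 from limma and 0.119 without wild-type replicate 2). tyn differed by 0.40 (adjusted p = 0.0344 from limma and 0.125 without wild-type replicate 1). Both calls were also lost without wild-type replicate 3 or any 1 of Asx0 replicates 3, 4 and 5. With the sex score as a covariate dpy and tyn were not called (adjusted p = 0.0795 and 0.107) and neo was. Among 27 chitin synthesis and remodelling genes, 5 were higher (18.5%) and 2 lower (7.41%), beside 5.19% and 6.15% of all tested genes. Their median was 0.08. The chitinase gene Cht10 was at 9.56, 9.60, 9.51, 9.94 and 9.61 in Asx0 embryos, against 8.51, 9.07 and 9.06 in wild type (difference 0.77, adjusted p = 0.00396 from limma). Idgf1, of a family of chitinase-like growth factors, was at 7.13 to 7.47 in Asx0 embryos and 7.80 to 8.56 in wild type (difference -0.87, adjusted p = 0.00278 from limma).

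The structural proteins of the cuticle moved in both directions around a median of 0. Of 69 Cpr, Lcp and Ccp genes 3 were higher (4.35%, beside 5.19% of all tested genes) and 12 lower (17.4%, beside 6.15%). Of 39 Tweedle and Osiris genes 2 were higher and 2 lower, a share called of 10.3%, near the 11.3% of all tested genes. The larval cuticle gene Lcp65Ag1 was at 13.39, 12.85, 13.20, 12.76 and 13.36 in Asx0 embryos, against 14.43, 14.49 and 13.83 in wild type (difference -1.14, adjusted p = 0.00195 from limma); near-identical copies lie beside it, so that its share of reads is uncertain. TwdlY differed by -0.75 and Cpr49Ac by -0.59, whereas TwdlH (0.55), Lcp65Ad (0.47) and Cpr97Eb (0.34) were higher. Variation within the groups was wide in these lists, with a median SD of 0.12 in Asx0 and 0.19 in wild-type embryos for the Cpr, Lcp and Ccp genes, where all tested genes had 0.08. Of 16 genes of cuticle tanning 3 were higher (18.8%, beside 5.19% of all tested genes) and 2 lower (12.5%, beside 6.15%). No call of these 5 passed with the sex score. They included b, the aspartate decarboxylase gene of beta-alanine synthesis (0.35), and yellow-h (0.50), and the adjusted p of b was 0.0794 and 0.0863 without wild-type replicates 1 and 2.

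Genes of muscle, nerve and glia were called in shares near or below that of all tested genes. Of 34 sarcomere genes 3 were higher and 1 lower (11.8%, beside 11.3% of all tested genes), with 11 higher and 4 lower at an unadjusted p under 0.05 and a median of 0.06. The list median of each embryo was 0.05 to 0.10 in Asx0, above the -0.02 to 0.01 in wild type. Zasp66, of the Z-disc, differed by 0.34 (adjusted p = 0.0197 from limma and 0.0758 without wild-type replicate 3, and 0.0688 with the sex score), and the actin gene Act79B by -0.20 at a low count. Of 42 neuronal genes 1 was higher and 1 lower, at a median of -0.01. The one lower, Appl, encodes the fly homologue of the amyloid precursor protein and was at 12.66, 12.32, 12.43, 12.58 and 12.54 in Asx0 embryos, against 13.22, 13.19 and 13.22 in wild type (difference -0.70, standard error 0.07, adjusted p = 0.000151 from limma). The 3 wild-type embryos lay within 0.03 of each other and above every mutant. Of 19 glial genes axo was higher (0.35, adjusted p = 0.013 from limma) and alrm, a marker of astrocyte-like glia, was lower (-0.40, adjusted p = 0.0269 from limma and 0.108 without wild-type replicate 2, the call being also lost without wild-type replicate 3 or any 1 of Asx0 replicates 1 to 4). Among 31 neuropeptide genes none was higher and 3 were lower by limma (2 and 8 at an unadjusted p under 0.05), with 25 below 0 and a median of -0.07. Of these 3, Tk had a difference of -0.29 (adjusted p = 0.00138 from limma) at a mean count of 35, and AstC of -0.33 (adjusted p = 0.0127 from limma and 0.0523 without wild-type replicate 1, and 0.063 with the sex score). Tracheal genes gave 1 lower of 15, the claudin gene sinu (-0.28, adjusted p = 0.00241 from limma), and salivary gland genes 1 higher of 12, the transcription factor gene sage (0.35, adjusted p = 0.0112 from limma).

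Genes of lipid storage and of the fat body were lower as a list. Of 25 tested genes 1 was higher and 8 lower (32%, beside 6.15% of all tested genes), and the median was -0.18. Acsl, which activates long-chain fatty acids, was at 12.68, 12.57, 12.67, 12.62 and 12.61 in Asx0 embryos, against 13, 12.97 and 12.89 in wild type (difference -0.32, adjusted p = 0.00195 from limma). Adh, the alcohol dehydrogenase gene and a marker of the fat body, was at 11.61 to 11.95 in Asx0 embryos and 12.18 to 12.35 in wild type (difference -0.50, adjusted p = 0.00297 from limma). The lipase gene Lip4 (-0.54) and the larval serum protein gene Lsp1gamma (-0.35) were lower in every setting that left out 1 embryo. NLaz (-0.29), ACC (-0.29), Mtp (-0.24) and FASN3 (-0.23) were lower as well. NLaz lost its call without wild-type replicate 3 (limma, adjusted p = 0.058), and the other 3 without wild-type replicate 1, where their adjusted p was 0.162, 0.0833 and 0.139, and without several other embryos. The diacylglycerol acyltransferase gene mdy was the one called higher (0.25, adjusted p = 0.032 from limma and 0.108 without wild-type replicate 3, and 0.141 with the sex score, the call being also lost without wild-type replicate 1 or any 1 of Asx0 replicates 2, 3 and 5). With the sex score as a covariate 4 of the 8 genes remained called lower, NLaz, ACC, Mtp and FASN3 being lost, and with median centring ACC and Mtp were lost (adjusted p = 0.0634 and 0.0598 from limma). The list median of each embryo was between -0.24 and -0.10 in Asx0, against -0.05, 0.00 and 0.05 in wild type.

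Macrophage and immune genes were called lower more often than the 6.15% of all tested genes. Of 20 macrophage and basement membrane genes 3 were lower (15%) and none higher by limma (6 and 2 at an unadjusted p under 0.05), led by the scavenger receptor gene Sr-CI at 7.67, 7.73, 7.48, 7.47 and 7.82 in Asx0 embryos, against 8.53, 8.52 and 8.62 in wild type (difference -0.92, adjusted p = 8.16e-05 from limma). The phagocytosis receptor gene NimC1 differed by -0.50 (adjusted p = 0.0169 from limma and 0.0692 without wild-type replicate 1, and 0.0708 with the sex score) and NimB2 by -0.23 (adjusted p = 0.0174 from limma and 0.072 without wild-type replicate 2 and 0.0635 without wild-type replicate 1). None of 4 crystal cell genes was called by limma, also at an unadjusted p under 0.05 (0 of 4), and all 4 differences were above 0. Of 23 immune genes that passed the count limit 2 were higher (8.7%, beside 5.19% of all tested genes) and 7 lower (30.4%), and 36 lay below it. BomBc2, BomS1 and BomS2, neighbouring Bomanin genes that encode short secreted peptides of the Toll response, were all lower. BomBc2 was at 5.38 to 5.40 in the 5 Asx0 embryos, against 6.42, 6.69 and 6.23 in wild type (difference -1.05, adjusted p = 2.18e-05 from limma). BomS1 (-0.58) and BomS2 (-0.43) had the same form at mean counts of 38 and 30. At such counts the deposited values vary less than counts would. PGRP-LC, the peptidoglycan receptor of the Imd pathway, was at 8.56 to 8.71 in Asx0 embryos and 9.12 to 9.18 in wild type (difference -0.53, adjusted p = 0.000166 from limma), and the glucan recognition genes GNBP2 (-0.47) and GNBP3 (-0.26) were lower. Tep3, of the thioester proteins, was higher by 0.42 (adjusted p = 0.000509 from limma).

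In central metabolism both phosphoenolpyruvate carboxykinase genes, which catalyse an early step of gluconeogenesis, were lower. Pepck2 was at 6.91, 7.16, 6.90, 7.12 and 7.04 in Asx0 embryos, against 7.93, 7.81 and 8.00 in wild type (difference -0.89, standard error 0.08, adjusted p = 4.32e-05 from limma). Pepck1 was at 12.29, 11.20, 11.74, 11.07 and 11.48 in Asx0 embryos, against 12.48, 12.54 and 12.69 in wild type, so that Asx0 replicate 1 came close to wild type (difference -1.01, adjusted p = 0.0138 from limma, 0.0688 with the sex score and 0.0726 with robust variances). Of the other glycolysis genes Gapdh1 was higher (0.37, adjusted p = 0.0064 from limma), making 1 higher and 2 lower of 21. This share of 14.3% was near the 11.3% of all tested genes. Among 20 antioxidant genes 3 were higher and 4 lower (35% called, beside 11.3%). Catalase (Cat), which breaks down hydrogen peroxide, was at 11.29 to 11.49 in Asx0 embryos and 11.81 to 11.96 in wild type (difference -0.48, adjusted p = 0.000509 from limma), opposite to Prx6b and Prx6c. Of 21 subunit genes of the vacuolar proton pump 1 was higher and 5 lower (28.6% called, beside 11.3%), at a median of -0.13. This list was added after values were seen. Vha100-5 had a difference of -0.59 (adjusted p = 0.00113 from limma), and Vha100-4, at 8.85, 8.10, 9.49, 9.45 and 8.59 in Asx0 embryos, against 10.42, 10.09 and 9.90 in wild type, one of -1.24 (adjusted p = 0.0157 from limma, 0.0527 with the sex score and 0.0619 without wild-type replicate 1).

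Ribosomal and nuclear respiratory genes lay slightly below wild type with few calls, most clearly in Asx0 replicate 4. Of 88 cytoplasmic ribosomal protein genes 78 had a negative difference, but only 2 were called lower and the median was -0.06. The median of this list was -0.25 in Asx0 replicate 4 and -0.06 in replicate 5, and between -0.01 and 0.00 in the other 3 mutants, against -0.04 to 0.07 in wild type. The 69 nuclear oxidative phosphorylation genes (median -0.09, 1 higher and 1 lower) followed the same embryos. Their list median was -0.23 in Asx0 replicate 4 and -0.08 to -0.03 in the other mutants, against -0.08 to 0.05 in wild type. The 34 proteasome genes did likewise, with -0.17 in Asx0 replicate 4 and -0.07 to -0.01 in the other mutants. In wild type they lay at -0.02 to 0.02. One proteasome gene went against its list: Prosalpha4, which encodes a subunit of the 20S core, was at 9.54, 9.55, 9.65, 9.54 and 9.51 in Asx0 embryos, against 8.85, 9.02 and 8.95 in wild type (difference 0.62, standard error 0.06, adjusted p = 8.16e-05 from limma). Of 74 mitochondrial ribosomal protein genes 5 were lower (6.76%, beside 6.15% of all tested genes) and none higher by limma (14 and 1 at an unadjusted p under 0.05). Their list median was -0.16 in Asx0 replicate 4 and -0.09 to -0.01 in the other mutants, against -0.01 to 0.01 in wild type. The calls were led by mRpL2 at 9.36 to 9.53 in Asx0 embryos and 9.93 to 9.95 in wild type (difference -0.50, adjusted p = 0.000166 from limma). Genes encoded by the mitochondrial genome behaved otherwise. Of 9 genes 4 were lower (44.4%, beside 6.15% of all tested genes): mt:ND6 (-0.53), mt:ATPase6 (-0.40), mt:ND3 (-0.34) and mt:Cyt-b (-0.29). This list was added after values were seen. The median of the 9 was -0.34 in Asx0 replicate 5, the lowest, and -0.10 in Asx0 replicate 4, the highest mutant.

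**Figure D4:**
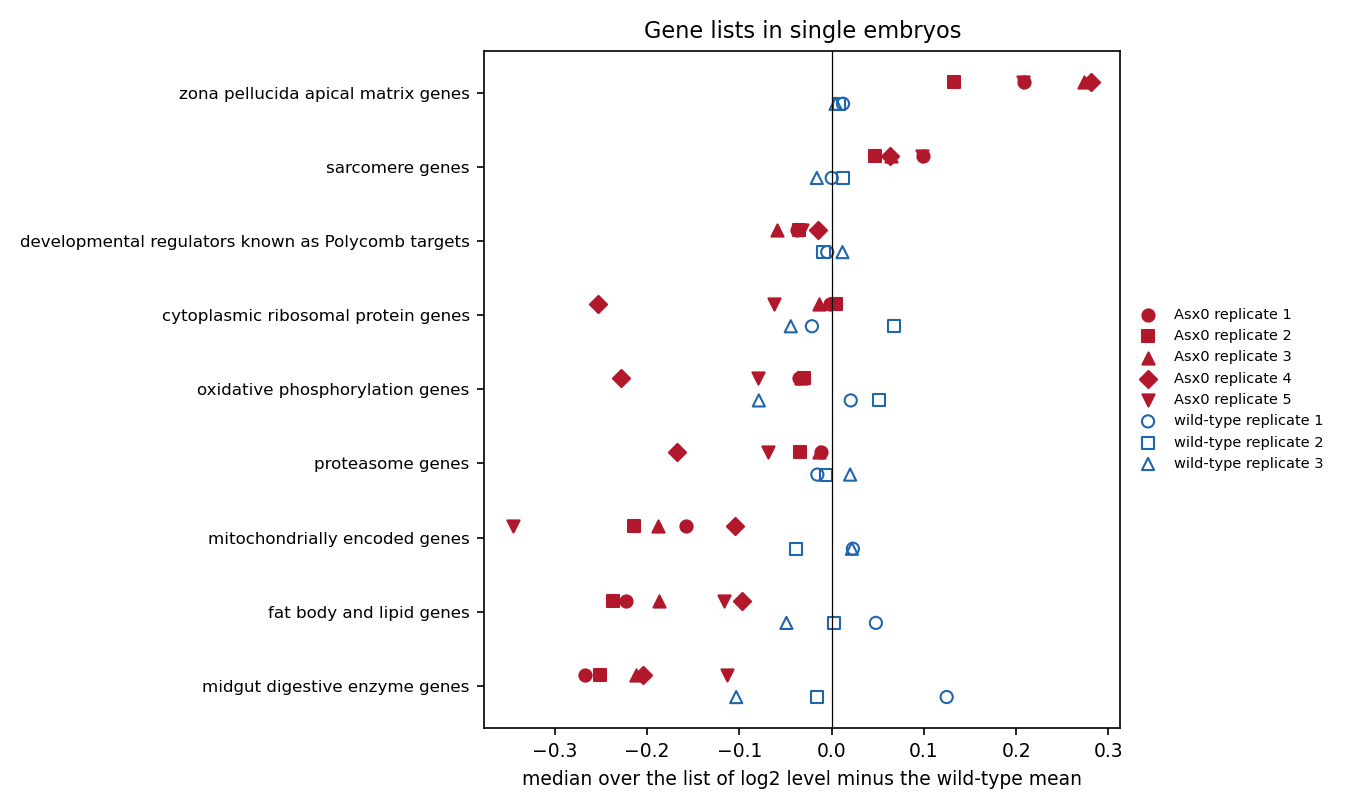
Median over each list of the log2 level minus the wild-type mean, 1 point per embryo, for Asx0 (filled red) and wild type (open blue), with a symbol for each replicate. For ribosomal, oxidative phosphorylation and proteasome genes Asx0 replicate 4 lies apart from the other mutants. For zona pellucida, sarcomere, developmental regulator, mitochondrially encoded, midgut digestive and lipid genes all 5 mutants lie to one side of the wild type. The gap is narrowest for the developmental regulators. The list of mitochondrially encoded genes was added after values were seen.

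Among the remaining lists the share called was between 0% and 26.7%, beside 11.3% of all tested genes. Of 42 cell cycle and replication genes pav, a kinesin gene of cytokinesis, was higher (0.29, adjusted p = 0.00511 from limma) and the mitotic phosphatase gene stg was lower (-0.39, adjusted p = 0.0242 from limma and 0.094 without wild-type replicate 1, the call being also lost without wild-type replicate 2 or either of Asx0 replicates 2 and 3). Of 25 heat shock and chaperone genes 2 were higher and 4 lower (24% called), among them the small heat shock protein genes Hsp23 (-0.32) and Hsp26 (-0.27). LeuRS, the leucyl-tRNA synthetase gene, had a difference of -0.38 (adjusted p = 0.00568 from limma) and was 1 of 2 lower genes among 33 such synthetases. Of 28 genes of ecdysone synthesis and response 2 were higher and 3 lower (17.9% called), including the nuclear receptor gene Hr51 (0.32, adjusted p = 0.00493 from limma) and ImpL1 (-0.42, adjusted p = 0.000606 from limma). None of 13 germ cell and maternal genes was called by limma (3 at an unadjusted p under 0.05). The odorant-binding protein genes gave 1 lower of 17 and the genes of sex determination and dosage compensation 1 lower of 13. Of 15 histone genes 3 were higher and 1 lower (26.7% called), but these are repeated many times with nearly the same sequence, and their levels are uncertain. His4:CG33883 was higher by 0.58 (adjusted p = 0.000165 from limma), and His2B:CG33870 was at 6.92 to 7.11 in Asx0 embryos, against 9.81, 10.03 and 7.1 in wild type, so that wild-type replicate 3 was at the mutant level and the call was lost when any 1 embryo other than wild-type replicate 3 was left out (limma, adjusted p = 0.124 without wild-type replicate 1).

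Called genes were spread over all chromosomes. The share called was 12.9% on each arm of chromosome 2, 11.5% on 3L, 9.73% on 3R, 10.1% on X and 8.86% on chromosome 4, beside 11.3% of all tested genes. Asx lies on 2R from 14503958 to 14512493 (dm6), and by distance from it the share on this arm was 13.3% of 15 genes within 0.1 Mb, 13.9% between 2 and 5 Mb and 12.1% beyond. On chromosome 4, the smallest, 6 of 79 genes were higher and 1 lower. Rnf11 (0.47) and RhoGAP102A (0.45) were at 10.04 to 10.28 and 9.90 to 10.12 in Asx0 embryos, against 9.59 to 9.81 and 9.43 to 9.65 in wild type. CaMKII, which encodes a calcium-dependent kinase, differed by 0.17 (adjusted p = 0.0481 from limma), and that call was lost without any 1 of the 8 embryos and with the sex score. There were 18 runs of 3 or more neighbouring tested genes called in 1 direction and 2 runs of 4 or more. In the longest, on 2L, the 5 genes CG10570 (-0.79), CG17325 (-1.51), Ugt36D1 (-0.67), Ugt36E1 (-0.71) and CG17597 (-0.58) were all lower. The other held Mal-A3, Mal-A4, Mal-A5 and mtt on 2R. The call of mtt was lost when any 1 embryo other than Asx0 replicate 5 and wild-type replicate 3 was left out (limma, adjusted p = 0.163 without wild-type replicate 1) and with the sex score.

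The Asx0 embryos were not uniform. On 3R the 13 neighbouring tested genes from larp to CG10011 (28318162 to 28635099 in dm6, 317 kb) were lower in Asx0 replicate 4 than in the other embryos, whatever their genotype. At 11 of the 13 genes this embryo was the lowest of all 8. Its median difference from the median of the other 7 embryos was -0.39 over all 13 genes and -0.53 over the 7 genes with mean counts of at least 1000. Ppn, which encodes the basement membrane protein Papilin, was at 14.78 in this embryo and between 15.31 and 15.50 in the other 7. Gfat2 was at 9.72, with 10.33 to 10.64 in the others, and larp at 12.45, with 12.86 to 13.10. fkh, the forkhead gene of gut and salivary gland, was at 10.23, with 10.46 to 10.77 in the others. Among the 10 tested genes on each side this embryo was the lowest at 3 of 20, with a median difference of 0.01. In no other embryo was 1 window of 15 neighbouring genes as uniform at the low end: the highest counts of lowest values were 12 in Asx0 replicate 4 and 10 in wild-type replicate 1. At the high end wild-type replicate 1 led 11 of 15 genes from Leash to CG18577 on 3R, by a median of 0.19. None of the 13 genes was called between the genotypes. The stretch was picked after its values were seen, and its cause was not tested.

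**Figure D5:**
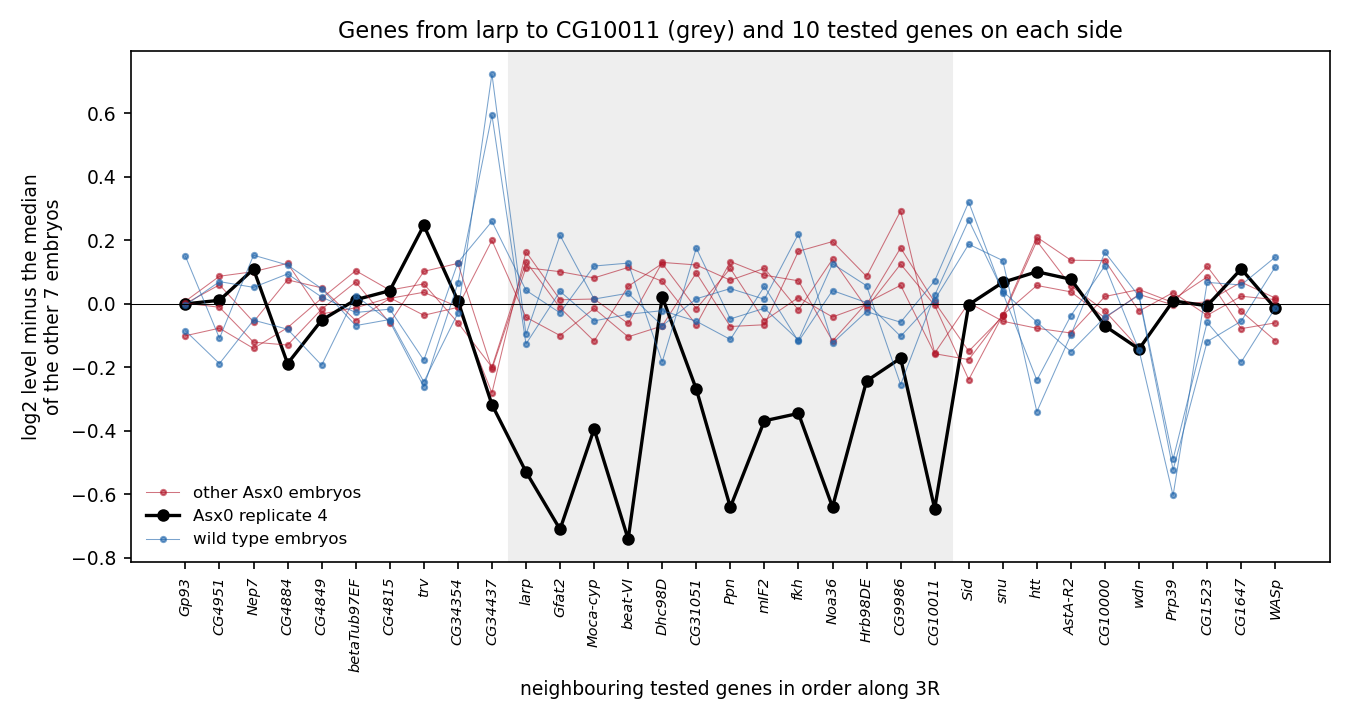
Log2 level of each embryo minus the median of the other 7, for the 13 tested genes from larp to CG10011 (grey) and 10 tested genes on each side, in order along 3R. Asx0 replicate 4 (black) lies at -0.74 to 0.02 inside the grey stretch and mostly near 0 outside it, while the other Asx0 (red) and wild-type (blue) embryos scatter around 0.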

How the data were processed

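Poly(A) RNA of single embryos was sequenced. Salmon was used by the authors for transcript levels and DESeq2 for normalization and tests of the gene sums. dm6 is the build in the notes of the submitters. The deposited table gives, per gene, the authors' mean normalized count over the 8 embryos (a signal scaled for depth) and, per embryo, a log2 normalized count. Per-embryo totals are not used here, so the depth, and with it the counting error of each value, is unknown. The authors' columns of fold changes and p-values were not used. Of 13754 genes, 877 had a mean of 0 and 32 identifiers had no symbol or position in the annotation used for names and positions (BDGP6).

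From the deposited log2 values, limma 3.58.1 in R 4.3.3 (empirical Bayes with a variance trend, two-sided, Benjamini-Hochberg over 10212 genes with a mean of at least 10) compared the 5 Asx0 with the 3 wild-type embryos. The script was tested on simulated data. A call is an adjusted p under 0.05. Each embryo is a sample, and p-values measure the spread between these embryos. Lists are described by counts and medians, with no test of the list. Tests on the log2 scale used no pseudocount, and the alternatives were pseudocounts of 1 and 5, a mean count of at least 50 or no limit, no trend, robust variances, embryo weights, median centring, quantile normalization, a replicate block, a sex score or cuticle level as covariate, and leaving out each embryo.

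Genes named by rule were Asx, caly, HOX genes, stock and sex markers, the 10 largest called differences each way without overlap of the groups, the 10 smallest adjusted p each way among calls within 2-fold, the 8 most abundant calls each way, up to 4 called members each way and 2 uncalled members of each list with the largest differences, and runs of at least 4 neighbours, of which the text leaves out some. The rule took 275 genes and the text names 174. Of those, 28 lie outside the rule and were chosen after their values were seen: caup, D, Unc-115b, yem, BckdhB, Amy-p, GstD10, Ugt35C1, NLaz, Mtp, FASN3, ACC, BomS2, GNBP3, CaMKII, fkh, larp, CG10011, Ppn, Gfat2, CG9416, CG10062, CG3552, CG3437, CG3434, Pfdn5, CCT1 and CG5376. The lists and the comparison were chosen with earlier results of these data known, and the lists of mitochondrially encoded, V-ATPase and chromosome 4 genes were added after values were seen. No sequences are shown.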

Additional observations from a re-analysis of the deposited data

Results flagged for a closer look

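Among 174 named genes, 20 (11.5%) had 1 Asx0 embryo farther from the other 4 than Dixon's 95% limit allows, where chance sets apart about 1 in 20 groups and 5.71% of all tested genes were so set apart. Several named genes were picked for such a value, so these shares are not comparable. The values are log2 levels, and groups of 3 wild-type embryos were not examined.

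Asx0 replicate 4 stood apart at larp (12.45), CG10011 (9.92), Ppn (14.78) and Gfat2 (9.72), which lie in the stretch on 3R, and at Dfd (7.64), Abd-B (10.28), SP1173 (13.68), Cyp4ad1 (8.81), Cht10 (9.94) and Tk (5.10). Asx0 replicate 1 stood apart at p24-2 (6.58), grn (10.24), msl-2 (8.31) and Sxl (12), the last pair being the genes of the sex score. Asx0 replicate 2 did so at Act87E (15.34) and NLaz (7.05), replicate 3 at Cyp4p2 (6.78), Ugt35C1 (5.66) and Prosalpha4 (9.65), and replicate 5 at yem (8.17). At Act87E, Cyp4p2, Prosalpha4, Cyp4ad1, Cht10, Tk, Ugt35C1, NLaz, grn and SP1173 the embryo that stood apart was still on the mutant side of every wild-type embryo. By a small gap this also held at p24-2 (6.58, against at most 6.38 in wild type) and yem (8.17, against at most 8.10).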

How the results depend on the processing

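The counts of called genes kept within 1.5 times of 530 higher and 628 lower in the alternatives, apart from the sex score as a covariate, with which 314 were higher and 435 lower and 689 of the 1158 calls were kept. Of the variance of this score 25.5% lay between the genotypes, and the cause of the loss was not tested. Leaving out 1 embryo at a time gave 361 to 460 higher and 482 to 599 lower, and above 2-fold 10 to 13 higher and 29 to 33 lower. Centring each embryo on its median gave 644 higher and 554 lower (53.8% of calls higher, beside 45.8%), and robust variances gave 9 higher and 27 lower above 2-fold. No named call changed sign. Of 156 named calls, 123 held whichever embryo was left out. With the sex score 28 were lost, those of ACC, Amy-p, AstC, CG5376, CG9416, CaMKII, D, FASN3, Mtp, NLaz, NimC1, Pepck1, Prx6b, SP1173, Vha100-4, Vha16-1, Zasp66, abd-A, b, dpy, grn, l(2)gl, mdy, mtt, p24-2, tyn, wg and yellow-h (adjusted p from 0.0527 to 0.184 from limma), and with robust variances 8, which besides those named above included Vha100-4 and CaMKII.

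The replicate numbers do not pair the embryos: same-numbered Asx0 and wild-type embryos had correlations of their deviations of 0.156, 0.064 and -0.089. With the replicate number as a block 600 genes were higher and 705 lower (13 and 33 above 2-fold), and it changed no named call. Low counts and unknown depth limit the genes near the count limit most.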

Other observations

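Runs of neighbours called in 1 direction included genes outside the lists. On 3L CG3552, CG3437 and CG3434 were lower by differences of -1.24, -0.44 and -0.60. CG3437 (9456342 to 9457669 in dm6) lies inside CG3552 (9456318 to 9459370), and reads of the shared stretch can fall to either gene. On 3R Pfdn5 (-0.40) and CCT1 (-0.48), which encode subunits of the prefoldin and CCT chaperones that fold actin and tubulin, lay in a run with CG5376 (-0.29). Pfdn5 and CG5376 overlap as well, from 22488033 to 22488110. On 2R CG9416 (0.32) and CG10062 (0.41) were higher beside CG10073. The calls of CG5376 and CG9416 were lost in several settings that left out 1 embryo, with an adjusted p of up to 0.113 and 0.114 from limma. These 8 genes were chosen after their values were seen.

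The spread among embryos differed between chromosome arms. An SD above 0.3 was found at 2.57% of tested genes on 3L and 2% on 3R among Asx0 embryos, beside 0.995% on 2L and 1.21% on 2R. Among wild-type embryos the shares were 4.64% on 3L, 2.94% on 3R, 2.71% on 2L and 2.12% on 2R.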
